A study of Mus musculus with 8 samples.

Results

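The 10 genes followed here belong to simple epithelia and were examined in MIN6 cells, a line derived from a mouse insulinoma and used in place of beta cells: Cdh1, Epcam, Cldn4, Cldn7, Ocln, Krt7, Krt8, Krt18, Krt19 and Grhl2. They are the 10 members of a list named for epithelial genes regulated by Klf4, out of 21887 protein-coding genes in the gene table, and neither regulation nor RNA was measured here. The assay was ATAC-seq, in which a transposase inserts adapters into DNA that is open enough to reach, so that reads collect at accessible sites. The labels give the molecule as genomic DNA and name an ATAC-seq kit, but a library kit sold for mRNA-seq is named beside it, and how that kit was used is not given in the sources used here. All cells were labelled wild type and were transfected for 48 hours with Lipofectamine 3000. The 4 control libraries received the pcDNA 3 empty vector and the 4 others a plasmid labelled pGloMyc-Klf4. The plasmids carry different names and a shared backbone is not stated, so an effect of Klf4 and one of the plasmid cannot be told apart. The values are 1 peak list per plasmid, merged over its 4 libraries. No spread between libraries can be given, none of the differences below was tested, and the read depth is unknown.

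Klf4 belongs to the Krüppel-like zinc finger factors, which bind CACCC and related GC-rich sites. It is abundant in differentiating epithelia such as gut and epidermis, and it is known as an activator of Cdh1, the gene of E-cadherin. Beta cells are themselves epithelial: they adhere through E-cadherin and EpCAM, while keratin 7 and keratin 19 are known as markers of pancreatic ducts rather than of islets. Cell adhesion molecules hold neighbouring cells together, tight junction proteins seal the gap between them, keratins form the intermediate filaments inside, and Grhl2 is a transcription factor that maintains the expression of several of these genes.

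The 2 lists held 100099 empty vector peaks and 128538 Klf4 peaks on chromosomes 1 to 19, X and Y. A Klf4 peak with no empty vector peak over any of its bases is called gained, the converse lost, and the others matched. Over all peaks 36.7% of the Klf4 list was gained and 18.8% of the empty vector list was lost. As a check of the labels, the strongest peak in the body of Klf4 had a −log10 q of 17134 and rank 1 in the Klf4 list, while the strongest empty vector peak there had a −log10 q of 32.2 and rank 19941. Of the beta cell markers, the starts of Ins1, Pdx1, Nkx6-1 and Iapp lay under peaks in both lists, 4 of the 5 with a known start. No start of the 3 duct, 5 acinar and 3 fibroblast markers with a known start did so with the empty vector. With Klf4 a peak lay over the starts of Cftr, Ptf1a, Col1a2 and Vim, among which Cftr is a duct gene and Ptf1a an acinar gene. Over the 17492 protein-coding genes with a known start, 60.8% had an empty vector peak there, 67.0% a Klf4 peak and 6.71% a Klf4 peak alone. Of the 5 acinar genes, Prss1 and Amy2b had no peak in their windows in either list, Cpa1 had 1 in each, Ptf1a had 2 with the empty vector and 5 with Klf4, and Cela1 had 5 and 10. Of the 16 Klf4 peaks in the acinar windows 10 were gained. The part of other cell types in the results was not tested.

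The gene starts are shown first, because at several of them the lists held different peaks. RefSeq (GRCm38.p6) gave start windows for 7 of the 10 genes, Epcam, Cldn4, Cldn7, Ocln, Krt7, Krt8 and Krt18, with 2 starts each for Cldn7 and Ocln. The window runs from 250 bases before the start to 50 bases after it, and the 250 bases before the start are printed 5′ to 3′ on the strand of the gene. Epcam (chr17:87635729-87635978, plus strand), Cldn4 (chr5:134946935-134947184, minus strand) and Krt18 (chr15:102027966-102028215, plus strand) are shown because a peak lay over the window with Klf4 and none did with the empty vector. Krt8 (chr15:102004343-102004592, minus strand) is shown because both lists had a peak there. The outer start of Cldn7 (chr11:69964529-69964778, plus strand) is shown because neither list did. Capitals mark CACCC, the core of the sites that Klf4 binds, on either strand, so that it appears as CACCC or GGGTG.
Epcam: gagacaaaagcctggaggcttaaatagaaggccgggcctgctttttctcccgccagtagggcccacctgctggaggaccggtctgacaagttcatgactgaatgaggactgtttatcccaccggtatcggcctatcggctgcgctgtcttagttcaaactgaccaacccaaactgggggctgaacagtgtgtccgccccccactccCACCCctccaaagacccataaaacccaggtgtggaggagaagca
Cldn4: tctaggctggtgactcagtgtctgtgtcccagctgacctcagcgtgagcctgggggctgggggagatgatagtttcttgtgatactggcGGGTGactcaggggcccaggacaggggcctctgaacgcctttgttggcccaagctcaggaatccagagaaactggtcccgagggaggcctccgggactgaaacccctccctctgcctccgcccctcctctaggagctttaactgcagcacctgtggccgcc
Krt18: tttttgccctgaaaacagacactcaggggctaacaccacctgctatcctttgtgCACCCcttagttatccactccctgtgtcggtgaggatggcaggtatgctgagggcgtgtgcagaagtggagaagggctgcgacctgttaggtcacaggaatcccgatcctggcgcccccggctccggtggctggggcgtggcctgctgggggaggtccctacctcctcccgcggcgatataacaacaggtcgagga
Krt8: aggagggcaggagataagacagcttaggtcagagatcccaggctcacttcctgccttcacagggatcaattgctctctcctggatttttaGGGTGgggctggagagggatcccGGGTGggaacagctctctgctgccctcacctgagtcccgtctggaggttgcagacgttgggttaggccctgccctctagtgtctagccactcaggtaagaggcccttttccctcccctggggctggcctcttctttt
Cldn7: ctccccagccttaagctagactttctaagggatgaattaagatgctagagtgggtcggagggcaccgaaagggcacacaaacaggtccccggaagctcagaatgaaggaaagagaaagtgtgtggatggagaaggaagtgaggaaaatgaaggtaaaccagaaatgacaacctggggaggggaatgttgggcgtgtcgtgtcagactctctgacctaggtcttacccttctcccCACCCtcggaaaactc

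CACCC was present in each of the 9 start windows of the 7 genes, and in 59.5% of the 21263 windows of protein-coding genes. The outer start of Ocln held the most, 4 matches, against a median of 1 over all windows. The longer CCCCACCC, which contains CACCC, was found in 3 of the 9 windows, those of Krt8, the outer start of Cldn7 and the inner start of Ocln, and in 2339 of the 21263 windows of all genes. GGGCGG, a GC-box, was found on either strand in 6 of the 9 windows and in 46.2% of all, with 4 matches at Krt7 and none at Krt8 and Krt18. CACCC was thus present in windows with a peak in both lists, in 1 list and in neither. CCCCACCC was not found at Epcam, Cldn4 or Krt18, the windows with a peak in 1 list. A match is a string of letters, and binding was not measured.

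An empty vector peak lay over the start window of 3 of the 7 genes (Ocln, Krt7, Krt8), against 60.8% of the 17492 protein-coding genes with a window. A Klf4 peak lay over 6 of the 7, all but Cldn7, against 67.0%. The window was under a Klf4 peak and no empty vector peak at 3 of the 7 (Epcam, Cldn4, Krt18), against 6.71%. The converse was seen at 0 of the 7, against 0.583%. Starts under a Klf4 peak alone were also found in other gene lists, the mesenchymal one among them, as given below. The genes without a start window were read at the edges of their gene bodies. At Cdh1 the lower edge was under a peak in both lists, whereas the upper edge of Krt19 and the lower edge of Grhl2 were under a Klf4 peak alone. In all, 4 of the 10 genes (Epcam, Krt18, Krt19, Grhl2) had a body edge under a Klf4 peak and neither edge under an empty vector peak, against 6.68% of all protein-coding genes.

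These start peaks differed widely in strength. The q-value is the peak caller's false discovery rate, and a −log10 q of 1.00 is the lowest in the Klf4 list. At Epcam both lists had a peak just inside the gene, 87636663 to 87637257 with the empty vector (−log10 q 12.3) and 87635794 to 87637242 with Klf4 (−log10 q 27.6). The Klf4 peak was the wider, 1449 against 595 bp, and it reached across the start, so that the peak over the Epcam start was a wider matched peak and not a gained one. The Krt19 edge peak, 100144942 to 100146206 on chromosome 11, was gained and had a −log10 q of 18.9. The peaks at the starts of Krt18 (169 bp, −log10 q 2.15) and Cldn4 (606 bp, −log10 q 1.74) and at the edge of Grhl2 (424 bp, −log10 q 2.65) were gained but weak. They ranked 117317, 122871 and 110643 of 128538 Klf4 peaks. When the Klf4 list was limited to as many peaks as the empty vector list holds, Epcam was the single gene of the 7 whose start lay under a Klf4 peak alone, against 5.37% of all genes with a window.

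**Figure D1:**
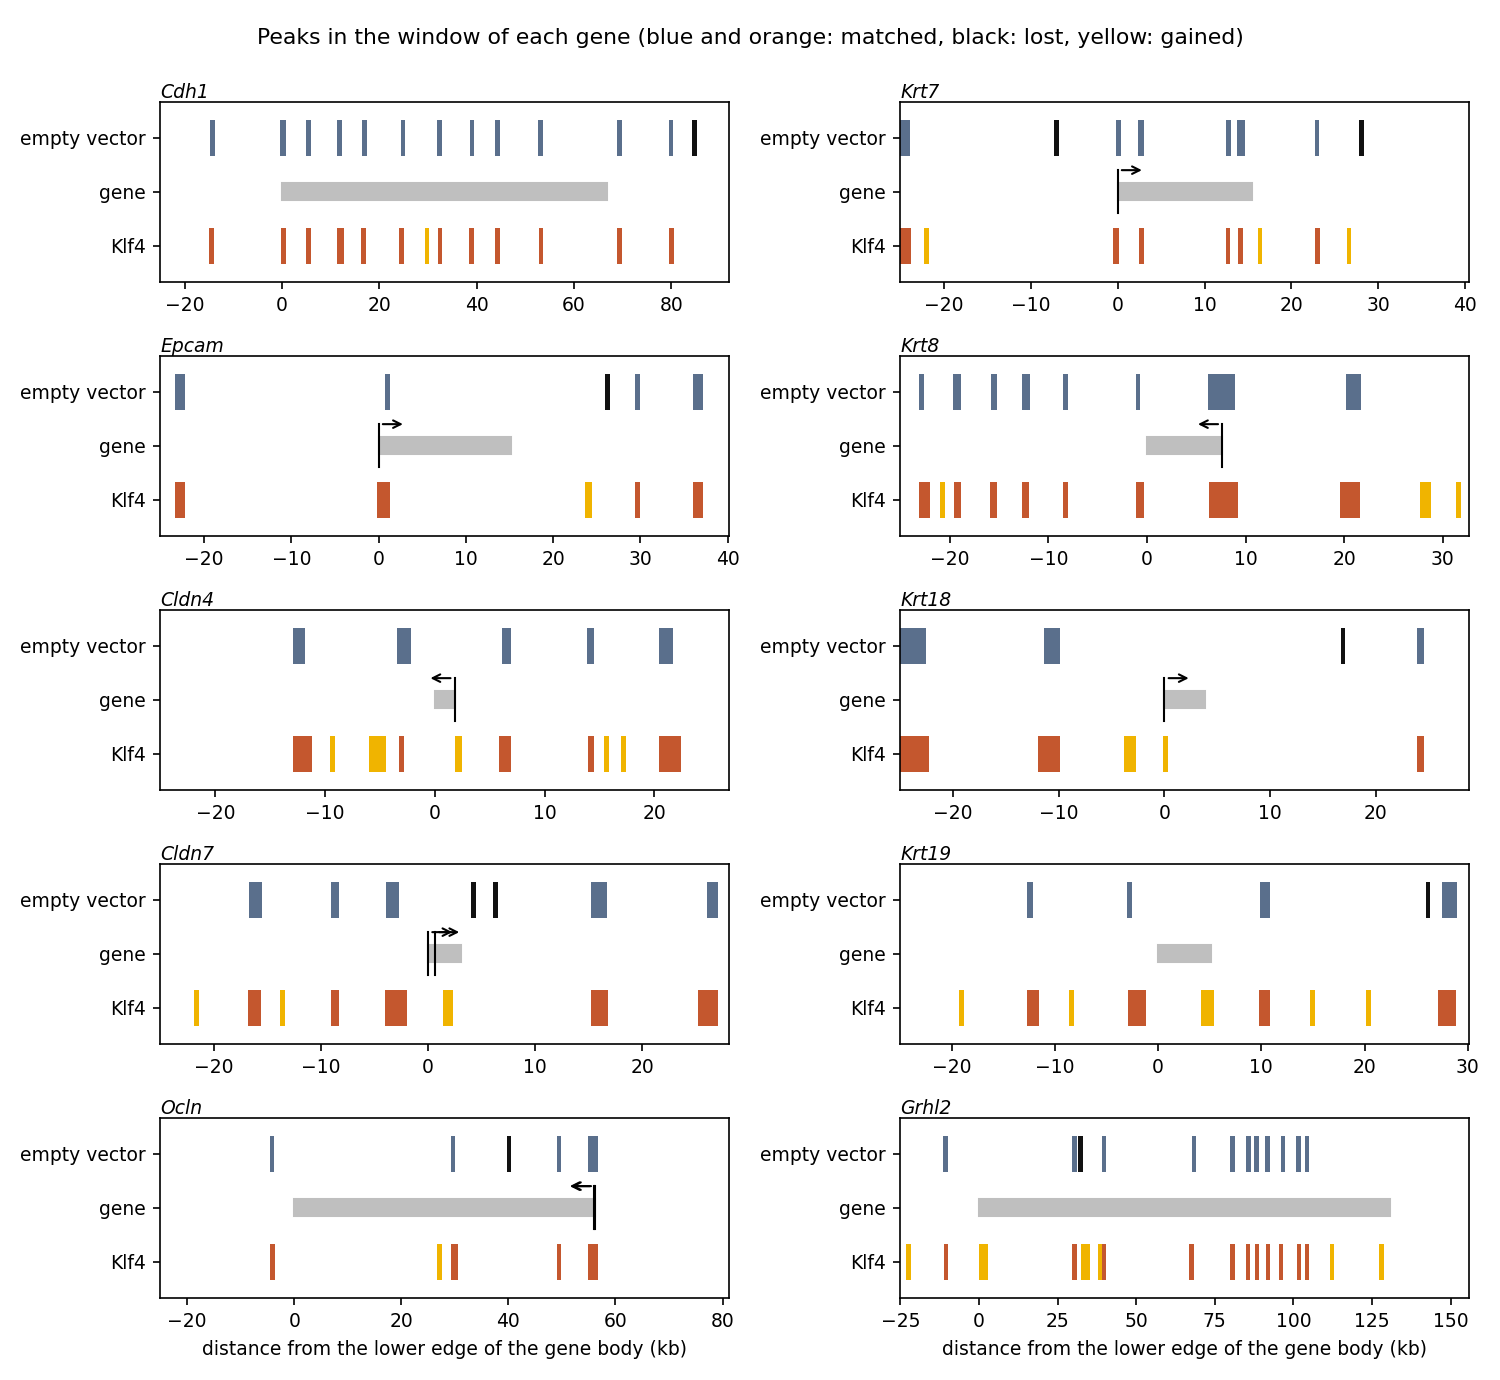
Peaks in the window of each gene, by distance in kb from the lower edge of the gene body (grey bar), with empty vector peaks above and Klf4 peaks below it. Blue and orange peaks are matched, black ones lost and yellow ones gained, arrows mark the starts known for 7 genes, and narrow peaks are drawn slightly wider than scale so that they can be seen. Yellow peaks sit on or beside the starts of Cldn4 and Krt18 and on the edges of Krt19 and Grhl2.

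For each gene, peaks were then counted over its body and 25 kb on both sides. With the empty vector 70 peaks lay in these windows and with Klf4 90, each counted once although the Krt8 and Krt18 windows overlap and share 4 Klf4 and 2 empty vector peaks. Of the 90 Klf4 peaks 30 were gained (33.3%, 95% Wilson interval 24.5 to 43.6%), against 36.6% of the Klf4 peaks in the windows of all protein-coding genes. Of the 70 empty vector peaks 10 were lost (14.3%, interval 7.95 to 24.3%), against 17.6%. The intervals cover counting error only. With lists of equal length 20 peaks were gained and 20 lost, so the larger number of gained peaks was not seen there. Gained and lost peaks were thus about as frequent here as around other genes. At least 1 gained peak was found at 10 of the 10 genes (72.3% of all genes) and at least 1 lost peak at 8 (49.7%).

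The length covered by peaks was greater with Klf4 at 10 of the 10 genes, against 67.8% of all protein-coding genes, and lower at 0, against 20.2%. It was at least 1.5-fold greater, with 500 bp added to both lengths, at 3 genes (Cldn4, Krt19, Grhl2), against 23.0%. It was at least 1.5-fold lower at 0 genes, against 1.54%. The median log2 ratio of Klf4 to empty vector covered length was 0.45 over the 10 genes, 0.21 over all protein-coding genes and 0.28 over the 19286 of them with a peak in the window. Of these 19286, 77.0% had greater covered length with Klf4, and all 10 genes have a peak in the window. With lists of equal length the ratio was above 0 at 9 of the 10 genes, against 54.8% of all genes, with medians of 0.39 and 0.05. Covered length says how many bases lay in called peaks and nothing of the height of the signal.

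**Figure D2:**
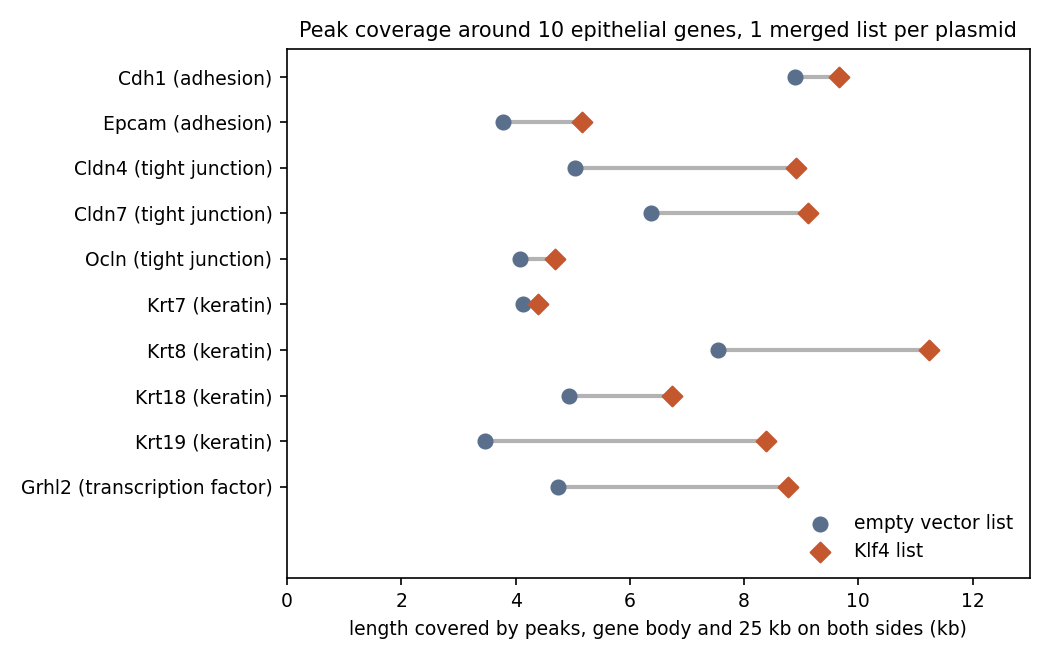
Length covered by peaks (kb) in the body of each gene and 25 kb on both sides, with circles for the empty vector list and diamonds for the Klf4 list, 1 merged value each. The diamond lies to the right of the circle for all 10 genes, by 267 bp at Krt7 and by 4920 bp at Krt19.

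Of the 2 adhesion genes, Cdh1, which encodes E-cadherin of the adherens junction, had nearly the same peaks in both lists. Both lists had 13 peaks in its window, 12 of them matched, which covered 8889 bp in the empty vector and 9657 bp in the Klf4 list (log2 ratio 0.11). Its lower edge, 106603350 on chromosome 8, was under a peak of −log10 q 36.9 with the empty vector and 41.0 with Klf4. The single gained peak lay inside the gene body at 106632653 to 106633015, was 363 bp wide and had a −log10 q of 14.1, with a rank of 4784 among the 47185 gained peaks of the whole list. The single lost peak, 106687704 to 106687889 (−log10 q 5.57), lay beyond the gene, within the neighbouring Tango6. The strongest peak of the window in both lists (−log10 q 192 and 155) also lay there, at the edge of Tango6. The lower edge of Cdh1 was thus under a strong peak in both lists. Among peaks with a −log10 q of at least 20 the log2 ratio of Cdh1 was 0.46.

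Epcam encodes a homophilic adhesion molecule of the epithelial cell surface. Both lists had 5 peaks in its window, 4 of them matched, with 3779 covered bp (empty vector) against 5156 (Klf4), a log2 ratio of 0.40. The start peak described above was 1449 bp wide against 595, and the gained peak added 766 bp. Both lie within 10 kb of the gene, and with a window of 10 kb the log2 ratio was 1.31. The gained peak, 87659667 to 87660432 (−log10 q 4.93), and the lost peak, 87661945 to 87662130 (−log10 q 1.57), both lay above the upper edge of the gene body.

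The tight junction genes differed from one another. Cldn4 and Cldn7 encode claudins, the strand-forming proteins of the junction, and Ocln encodes occludin, a membrane protein of the same strands. Together their windows held 17 empty vector and 23 Klf4 peaks, with 9 gained and 3 lost.

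At Cldn4 the empty vector list had 5 peaks covering 5048 bp and the Klf4 list 10 peaks covering 8905 bp (log2 ratio 0.76). All 5 empty vector peaks were matched and 5 Klf4 peaks were gained, none of them overlapping the gene body. The gained peak with the highest −log10 q, 7.25, lay at 134935604 to 134936045 on chromosome 5, within the neighbouring gene Mettl27. The 5 gained peaks had fold enrichments over local background of 1.92 to 2.52. The lowest of these was above 1.12% of the Klf4 list and the highest above 8.25% of it. Around Cldn4, within 500 kb of the gene, 57.2% of 173 Klf4 peaks were gained, the highest such share among the 10 genes. Gained peaks were thus also frequent around Cldn4, and those in its window had low enrichment. Among all peaks of the window, that of the empty vector list with the highest −log10 q lay at 134932230 to 134933305 (−log10 q 96.1), at the edge of Mettl27, and that of the Klf4 list at 134965578 to 134967593 (−log10 q 61.2), nearest to Cldn3, another claudin gene. Both were matched. When each peak was given to its nearest gene alone, the log2 ratio of Cldn4 was 0.09.

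Cldn7 had 7 empty vector peaks covering 6369 bp and 8 Klf4 peaks covering 9118 bp (log2 ratio 0.49), with 5 matched, 3 gained and 2 lost. The gained peak with the highest −log10 q lay inside the gene at 69966129 to 69967129 on chromosome 11, 708 bp downstream of the inner start, with a −log10 q of 16.9 and a rank of 3143 among 47185 gained peaks. The empty vector list had no peak within the gene, and its peak closest to a start lay 2690 bp before the outer one. The 2 lost peaks had −log10 q of 1.82 and 1.53 and lay downstream, in Elp5. The window is dense with genes and holds 5 others, and the strongest peak of both lists (−log10 q 250 and 146) lay at the edges of Elp5 and Ctdnep1.

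Ocln had 5 peaks in both lists, 4 of them matched, with 4076 covered bp (empty vector) against 4699 (Klf4), a log2 ratio of 0.18. Both its starts lay under a single wide peak in each list, 1826 bp wide in the empty vector list (−log10 q 22.6) and 1802 bp wide in the Klf4 list (−log10 q 36.9), where it was the strongest of the window. The empty vector peak with the highest −log10 q, 100491897 to 100492762 (−log10 q 53.7), was matched and lay nearest to Gtf2h2. The gained peak, 100523207 to 100523399 on chromosome 13 (−log10 q 2.35), and the lost peak, 100536150 to 100536435 (−log10 q 1.16), were both inside the gene and near the lower limit of their lists. Occludin thus had an accessible start with both plasmids. When weak peaks were set aside, at a −log10 q of at least 5, its log2 ratio was −0.24.

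The 4 keratin genes lie in the keratin clusters of chromosomes 11 and 15. Their windows held 23 empty vector and 30 Klf4 peaks, with 11 gained and 4 lost. Krt8 and Krt18 encode the obligate partners of simple epithelia and are neighbours, and Krt7 and Krt19 are a type II and a type I keratin of ducts.

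Krt19 had the largest log2 ratio of the 10 genes, 1.16, with 5 empty vector peaks covering 3461 bp and 9 Klf4 peaks covering 8381 bp. This ratio was higher than that of 94.6% of all protein-coding genes. Of the 9 Klf4 peaks 5 were gained. The gained peak with the highest −log10 q lay 15062 bp above the gene body at 100160988 to 100161398, with a −log10 q of 46.6. Its enrichment over local background was 9.08-fold. It was the strongest Klf4 peak of the window and ranked 113 among the 47185 gained peaks, the highest place of any gained peak at the 10 genes. The second was the peak over the upper edge of Krt19 described above, with rank 2406. The strongest empty vector peak lay at 100168281 to 100169773 (−log10 q 59.4), beyond the gained peaks, and was matched. The lost peak, 100166733 to 100166906, had a −log10 q of 3.69. Krt15 and Krt13, keratins of stratified epithelia, lie in the same window, and 2 of the 5 gained peaks were nearest to them. The log2 ratio of Krt19 was 0.61 at a −log10 q of 5 or more, 0.37 at 20 or more and 0.95 for lists of equal length. It was 1.59 with a window of 10 kb and 1.93 when each peak was given to its nearest gene.

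Krt7 showed the smallest difference. Its window had 8 empty vector peaks covering 4125 bp and 9 Klf4 peaks covering 4392 bp (log2 ratio 0.08), with 6 matched, 3 gained and 2 lost. Its start was under a peak of 407 bp (−log10 q 2.85) with the empty vector and of 698 bp (−log10 q 8.65) with Klf4. The strongest peak of both lists, inside the gene near its upper edge, had a −log10 q of 32.2 and 33.8. The gained peaks had −log10 q of 3.67 to 5.66, the highest at 101428529 to 101428885, and the lost ones 2.14 and 3.41, the higher at 101440222 to 101440448. With a window of 10 kb the log2 ratio was −0.02 and with peaks of at least 500 bp it was −0.12, so its direction depended on these choices.

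At Krt8 all 8 empty vector peaks were matched, and the Klf4 list had 11 peaks, 3 of them gained. They covered 7537 and 11228 bp (log2 ratio 0.55). The start lay under the widest peak at the 10 genes in both lists, 2739 bp wide in the empty vector list (−log10 q 26.4) and 2994 bp wide in the Klf4 list (−log10 q 19.6). The strongest peak, 101984024 to 101984846 with the empty vector and 101984024 to 101984730 with Klf4, had a −log10 q of 68.1 and 56.2. The gained peak with the highest −log10 q, 7.64, lay at 101975776 to 101976285 on chromosome 15, inside the neighbouring keratin gene Krt78. Krt8 was thus widely accessible with both plasmids, with 6 further matched peaks on the side of Krt78.

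Krt18 had 4 empty vector peaks covering 4929 bp and 5 Klf4 peaks covering 6734 bp (log2 ratio 0.41), with 3 matched, 2 gained and 1 lost. With the empty vector the closest peak lay 9857 bp from the start. With Klf4 the start itself was under the gained peak at 102028077 to 102028245, and the other gained peak, 102024368 to 102025487 (1120 bp, −log10 q 5.33), lay 2729 bp before the gene. Both also fall in the Krt8 window. The lost peak, 102044913 to 102045219, had a −log10 q of 1.90. The strongest peak of both lists lay between Krt8 and Krt18 (−log10 q 59.9 and 45.3). Among peaks with a −log10 q of at least 20 the log2 ratio was −0.67 at Krt18 and −0.33 at Krt8. The wide matched peak over the Krt8 start lies in both windows. It had a −log10 q of 26.4 with the empty vector and 19.6 with Klf4, so only the empty vector peak entered there. With a window of 10 kb the log2 ratio was 1.57 at Krt18 and 0.26 at Krt8. When each peak was given to its nearest gene it was 0.60 and 0.11. Krt18 thus differed from Krt8 in having no peak over its start with the empty vector.

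Grhl2, which encodes a grainyhead-like transcription factor of epithelia, had the most gained peaks, 8 of 19. The empty vector list had 12 peaks covering 4735 bp and the Klf4 list covered 8776 bp (log2 ratio 0.83). The body of Grhl2 is also the longest of the 10, at 130749 bp, and 7 of the 8 gained peaks overlapped it. The gained peak with the highest −log10 q, 10.1, lay at 37234167 to 37234762 on chromosome 15, just inside the lower edge of the gene, and the one over that edge was described above. The other 6 had −log10 q of 2.20 to 5.70. The strongest peak of both lists was matched and lay inside the gene at 37317799 to 37318538 with the empty vector (−log10 q 53.8) and at 37317654 to 37318504 with Klf4 (−log10 q 57.2). The lost peak, 37264422 to 37264601, had a −log10 q of 2.80. With lists of equal length the log2 ratio of Grhl2 was −0.17, as against 1.11 at a −log10 q of 5 or more and 0.12 at 20 or more, so its direction depended on which peaks were used.

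**Figure D3:**
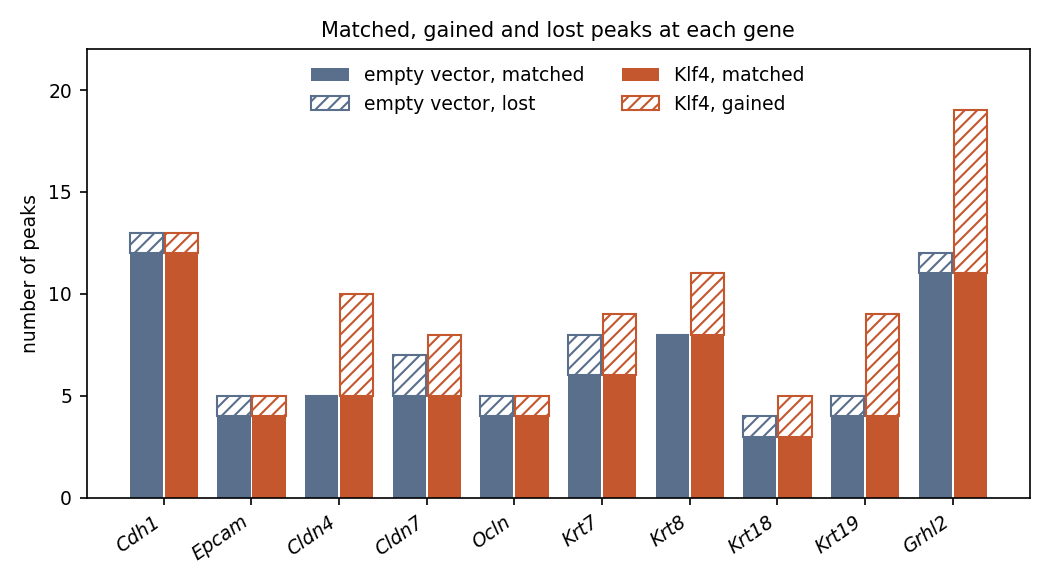
Number of peaks in the window of each gene, with the empty vector list in blue and the Klf4 list in orange, and solid bars for matched and hatched bars for lost or gained peaks. Grhl2 has 8 gained peaks, Cldn4 and Krt19 have 5 each, and Cldn4 and Krt8 have no lost peak.

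The gained peaks of the 10 genes were of ordinary strength. Their median −log10 q was 5.13 (range 1.74 to 46.6), against 4.75 over all gained peaks, and 5 of the 30 (16.7%) reached 10, against 19.4%. Their median width was 361 bp, against 355 bp. The lost peaks had a median −log10 q of 2.02 (range 1.16 to 5.57), against 2.63 over all lost peaks. Matched peaks were stronger, with a median of 12.1 with the empty vector and 19.6 with Klf4 at the 10 genes, against 12.2 and 10.8 over each list. Of the 30 gained peaks 21 were nearest to 1 of the 10 genes and 9 to another gene. The windows end at a fixed distance, and in the empty vector list the peaks closest to that limit lay at Krt7, 23841 bp (−log10 q 17.7, matched) and 25271 bp (−log10 q 27.9, matched) from the gene. In the Klf4 list they also lay at Krt7, at 23809 bp (−log10 q 19.5, matched) and 25117 bp (−log10 q 40.9, matched).

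**Figure D4:**
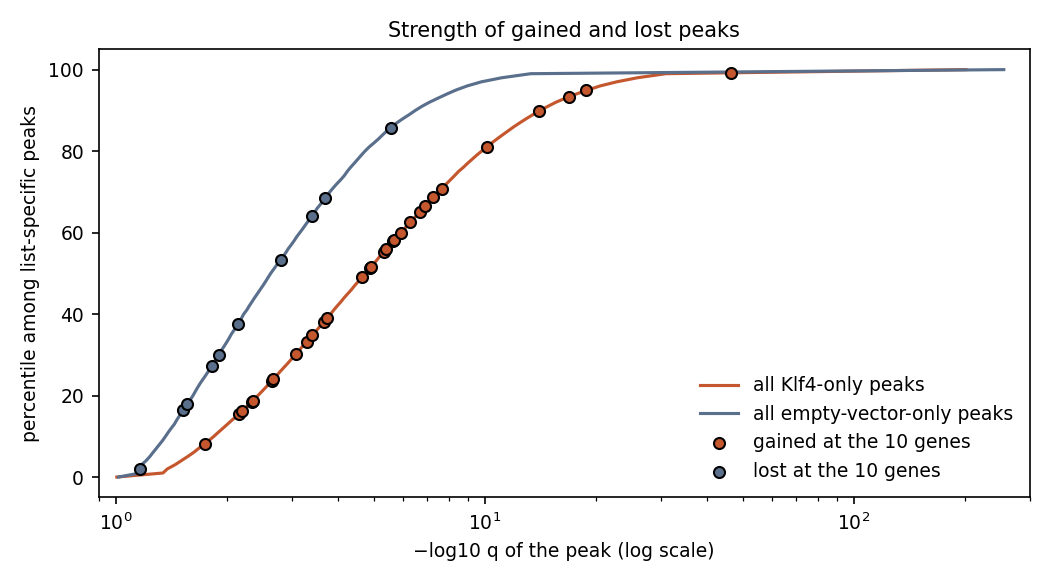
Curves give the percentile of every gained (orange) and lost (blue) peak of the whole lists by its −log10 q, on a log scale, and points are the 30 gained and 10 lost peaks at the 10 genes. The points spread along both curves, and the highest gained one, near Krt19, has a −log10 q of 46.6.

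The surroundings of the genes were also examined. Within 500 kb, the share of Klf4 peaks that were gained ran from 28.1% at Ocln and 32.7% at Cdh1 to 54.0% at Krt7 and 57.2% at Cldn4. At Krt8 and Krt18, which share most of this stretch, 59 of 115 and 57 of 114 Klf4 peaks were gained. The share was above the 36.7% of the whole list at 8 of the 10 genes. The stretch around Krt7 overlaps those of Krt8 and Krt18, so these genes do not stand for separate regions. Krt7, Krt8, Krt18 and Grhl2 lie on chromosome 15, where 37.4% of all Klf4 peaks were gained.

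Other genes of the same biology were taken from lists drawn up by function, and none of these counts was tested. Their counts stand beside the 67.8% of all protein-coding genes with greater covered length, the 20.2% with lower and the medians of 0.21 and 0.28 given above. Among genes with a peak in the window 77.0% had greater covered length. Of 15 tight junction genes, 10 had greater covered length with Klf4 and 5 lower, with a median log2 ratio of 0.30, which is near the values over all genes. The highest were Tjp3 (1.09), a scaffold protein, and Crb3 (1.06), a polarity protein. The lowest were Cldn8, which had 3 empty vector peaks covering 849 bp and no Klf4 peak, and Cldn1 (−0.35). All 12 adherens junction and desmosome genes had greater covered length, with a median of 0.52, from Pkp2 (0.15) and Ctnna1 (0.16) to Ctnnb1 (1.14), the gene of beta-catenin, and Pkp3 (1.24), a desmosomal plakophilin. Of 12 transcription and splicing regulators 11 were higher, with a median of 0.50. Grhl3 (1.55) and Tfap2c (1.53) were the highest, and Trp63 (0.01) was among the lowest. Of 12 surface genes of epithelia 11 were higher, with a median of 0.46. St14 (2.07), the gene of the protease matriptase, was the highest, followed by Mal2, which had no empty vector peak and 1 Klf4 peak of 1299 bp. The lowest were Cd24a (−0.20) and Cdh3 (0.16).

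The other keratins had the largest values. All 12 had greater covered length with Klf4, 10 of them at least 1.5-fold, against 67.8% and 23.0% of all protein-coding genes, with a median log2 ratio of 1.36. Krt4, a keratin of stratified squamous epithelia, had 7 Klf4 peaks covering 3375 bp and none in the empty vector list. Krt14, the basal keratin of epidermis, had 4 peaks covering 1198 bp and 9 covering 6144 bp (1.97). The lowest were Krt10 (0.32) and Krt23 (0.38). Over the windows of these keratins, 51 of 79 Klf4 peaks were gained (64.6%), against 36.6% in the windows of all protein-coding genes. The windows lie on 2 chromosomes and several share peaks. Those of Krt13 and Krt15 overlap that of Krt19, and that of Krt80 overlaps that of Krt7. Krt6a has close paralogs among which reads may be misplaced. The windows were also poor in peaks with the empty vector, with a median of 1232 bp against 3706 bp over all genes.

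The mesenchymal list is the contrast. Of its 12 genes 9 had greater covered length with Klf4 and 3 lower, against 67.8% and 20.2% of all protein-coding genes. Among genes with a peak in the window 77.0% had greater covered length. The list median was 0.46, next to 0.45 for the 10 epithelial genes. Twist2 (1.43), a transcription factor, and Vim (1.40), the intermediate filament gene of mesenchymal cells, were the highest, and Cdh11 (−0.21) and Prrx1 (−0.13) the lowest. The start was under a Klf4 peak alone at 2 of the 7 mesenchymal genes with a known start. The same held at 3 of 6 other keratins, 2 of 11 tight junction genes and 1 of 5 adherens junction and desmosome genes. It held at 0 of 4 regulators and 0 of 6 surface genes, against 6.71% of all genes with a window. The 8 beta cell markers had a median log2 ratio of 0.22, from 0.04 at Iapp to 0.87 at Nkx6-1. The 6 duct markers, which include Krt19 itself, had a median of 0.56, with 4 higher and 2 lower, from Spp1 (−0.29) to Sox9, which had 5 Klf4 peaks and none in the empty vector list. Of the 5 acinar markers 3 were higher and 2 had no peak (median 0.13). Of the 5 fibroblast markers, which share Vim with the mesenchymal list, 4 were higher and 1 lower (median 0.31).

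**Figure D5:**
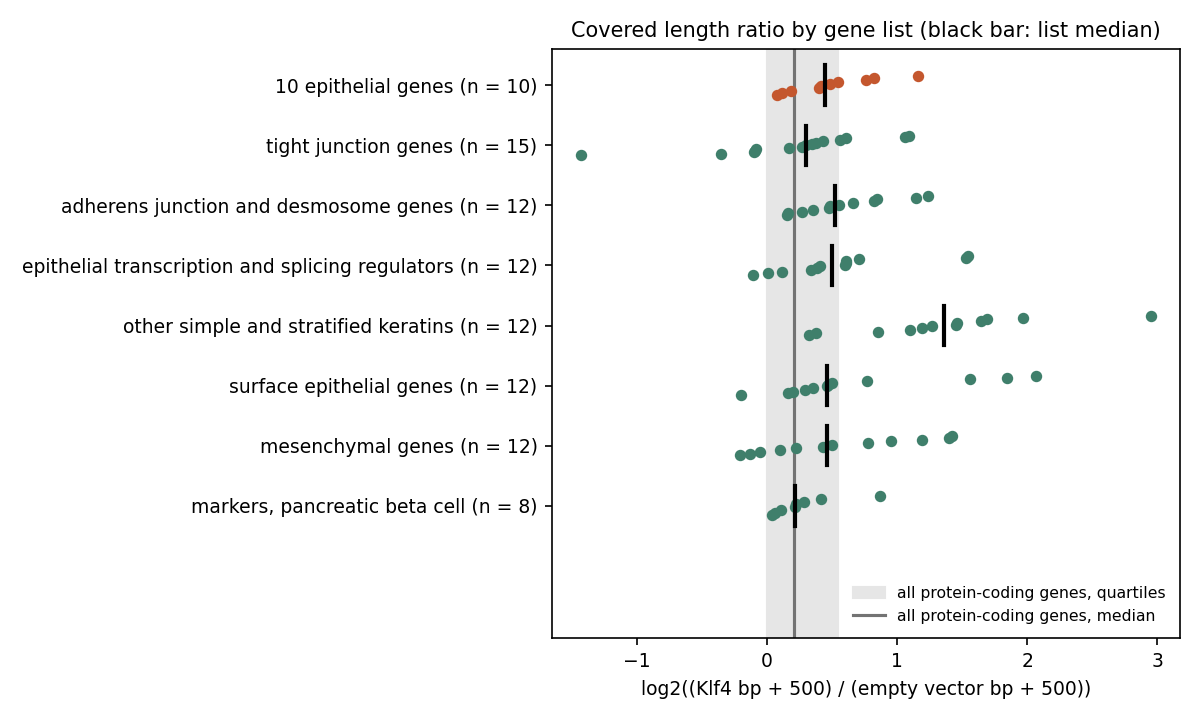
Each point is a gene, by the log2 ratio of covered length with Klf4 to that with the empty vector (500 bp added to both), black bars are list medians, and the grey line and band are the median and quartiles of all protein-coding genes. The 10 epithelial genes (0.45) and the mesenchymal genes (0.46) have nearly the same median, and the other keratins lie farthest to the right (1.36).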

How the data were processed

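The 8 ATAC-seq libraries of MIN6 cells, 4 per plasmid, were grouped by their labels. Per the submitters' processing notes, FastQC, Bowtie2, MACS2 and DiffBind were used with mm10. Their versions and options, the handling of duplicates and of the transposase offset, and whether libraries were pooled before peak calling are not given in the sources used here. The authors deposited, for each broad peak, its fold enrichment (a ratio to local background), −log10 p and −log10 q. Fold enrichments were not compared between the lists. The differential analysis was not analysed here. Peaks on scaffolds (165 and 188) were left out.

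Gene bodies, biotypes and start windows came from the RefSeq tables for GRCm38.p6, the assembly that mm10 denotes. A peak in the window of a gene, its body with 25 kb on both sides, counted for that gene. Covered lengths were clipped to the window, and 500 bp were added to both before the log2 ratio. Because more peaks passed the q-value with Klf4, peak numbers and covered length can differ with depth alone, which was not tested. Matching and coverage were tested on simulated data with known answers.

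The members and gene lists were chosen with earlier results of these data known. The genes named from each list of genes by function are the 2 highest and the 2 lowest, and the peaks named are the strongest, and the strongest gained and lost ones, of each member. A gene and a peak that this rule names are not reported here. The rule does not cover the cell type markers, of which those named with values were chosen after their values were seen. Alternatives were windows of 10 and 50 kb, −log10 q of at least 5 or 20, lists of equal length by −log10 p, peaks of at least 500 bp, 50% of a peak covered, peaks given to the nearest gene, 100 bp added, and a background of genes with a peak. After seeing the data, 1 kb around the start, leaving out Grhl2 and a motif search without the bases after the start were added. Python 3.11.15, numpy 2.4.6, pandas 2.3.3 and scipy 1.17.1 were used.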

Additional observations from a re-analysis of the deposited data

How the results depend on the processing

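No paired analysis was possible because each plasmid has 1 merged list, with no value per library, and leaving out single replicates was not run for the same reason. A count was taken as moved when it changed by more than 1.5 times and a log2 ratio when it changed by 0.1 or more. Of 43 values of the main results under alternatives, 13 moved and 30 did not. The median log2 ratio of the 10 genes was 0.60 with windows of 10 kb and 0.24 at a −log10 q of at least 20. Over all protein-coding genes it was 0.13 and 0 under these settings. Gained peaks numbered 51 with windows of 50 kb, 6 at a −log10 q of at least 20 and 16 among peaks of at least 500 bp. Lost peaks numbered 5 and 22 with windows of 10 and 50 kb, 2 among peaks of −log10 q 20 or more, 20 with lists of equal length, 4 among peaks of at least 500 bp and 4 when peaks went to the nearest gene. Starts under a Klf4 peak alone numbered 1 for −log10 q of 20 or more and 1 with lists of equal length, Epcam in both. Over all genes with a window the shares were 2.73% and 5.37%. With 1 kb around the start, such starts again numbered 3, with Cldn7 in place of Epcam, against 7.20% of all. They were Epcam and Krt7 for −log10 q of 5 or more, against 6.27%. For peaks of at least 500 bp they were Cldn4, Epcam and Krt7, against 5.64%. Of the 90 values of single genes and of the background, 51 did not move, 32 moved with no change of sign and 7 changed sign: Ocln among peaks of −log10 q 5 or more (−0.24), Grhl2 with lists of equal length (−0.17), Krt7 with windows of 10 kb (−0.022), with peaks of at least 500 bp (−0.12) and with peaks given to the nearest gene (−0.012), and Krt8 (−0.33) and Krt18 (−0.67) at a −log10 q of at least 20. Fewer peaks or narrower windows enter under these settings. At Krt8 and Krt18 the matched peak over the Krt8 start passed a −log10 q of 20 in the empty vector list alone. Any further cause was not tested.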
